A study of Mus musculus with 4 samples.

Results

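The phosphatidylcholine and phosphatidylethanolamine synthesis genes are 10 genes that were picked by symbol from the 35739 genes in the TPM table: the choline kinases *Chka* and *Chkb*, the ethanolamine kinases *Etnk1* and *Etnk2*, the cytidylyl transferases *Pcyt1a* and *Pcyt2*, the phosphotransferases *Chpt1* and *Cept1*, the methyltransferase *Pemt* and the acyltransferase *Lpcat3*. All 10 were found, each on 1 row. The rule uses no measured value, but the members were chosen with earlier results of these data known. RNA-seq was carried out on liver of WT mice (replicates 2 and 3) and of *Usp21* KO mice (replicates 1 and 3). In the KO mice exons 3 and 4 of *Usp21*, which encodes a deubiquitinating enzyme, had been removed constitutively with Cre, the WT mice were littermates, and the KO alleles came from a mixed B6 and 129/Sv background. The mice were 10 to 11 weeks old and ate a normal diet. Each genotype had 2 numbered libraries, and the labels do not say that these were separate animals, so p-values measure only the spread between libraries, which may be technical. The Cre line, the sex of these mice and the hour at which liver was taken are not given in the sources used here.

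Phosphatidylcholine and phosphatidylethanolamine are the main phospholipids of cell membranes, and hepatocytes also need phosphatidylcholine to coat very low density lipoprotein and to secrete bile. In the CDP-choline route a kinase phosphorylates choline, a cytidylyl transferase makes CDP-choline, and a phosphotransferase joins it to diacylglycerol. The CDP-ethanolamine route runs in parallel with its own kinases and cytidylyl transferase. Liver also makes phosphatidylcholine by adding methyl groups to phosphatidylethanolamine, which PEMT catalyses, and LPCAT3 then exchanges acyl chains by adding polyunsaturated fatty acids to lysophosphatidylcholine.

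Levels are given as TPM, which are corrected for transcript length and can be compared between genes, but keep no record of sequencing depth. Differences are Usp21 KO minus WT on the log2(TPM + 1) scale with limma's standard error (SE), tested with limma over 9581 genes whose mean over the libraries reached 1 TPM. All 10 members passed this filter. On this scale the median of all tested genes was 0.15, and it was 0.04 after each library was scaled to an equal upper quartile and 0.01 after TMM scaling of the TPM, so a difference is also given relative to that median where it matters. An exact permutation test of a single gene with 2 libraries per genotype has 0.333 as its smallest p. *Usp21* itself had 4.07 and 6.29 TPM in the WT livers, against 1.64 and 2.93 TPM in KO, so the KO libraries were the lower ones, but its transcript was still present. Hepatocyte markers were abundant in every library, with *Alb* between 27475 and 43181 TPM. The summed TPM of 5 stellate cell markers was 53.5 and 41.4 in WT and 77.5 and 59.97 in KO, and that of 5 cholangiocyte markers was 14.6 and 15.9 in WT and 37.9 and 24.5 in KO, with most of it from *Spp1* (12.7 to 33.4 TPM). The stellate sum came mostly from *Dcn*, which ranged from 34.1 to 62.8 TPM. Of the stellate markers, *Dcn* and *Reln* were higher in KO without overlap, whereas *Lrat*, *Des* and *Col1a1* overlapped between genotypes. In the cholangiocyte list *Krt7* was at 0 in KO replicate 3, and *Krt19*, *Krt7* and *Epcam* had means under 1 TPM. The genotypes overlapped in the sums of 5 markers each of hepatocytes (53386 to 68740 TPM in WT, 45566 to 54728 TPM in KO), Kupffer cells (86.2 to 97.2 and 50.3 to 131.9 TPM), sinusoidal endothelium (31.6 to 40.7 and 33.6 to 49.6 TPM) and red blood cells (892 to 911 and 719 to 901 TPM). In bulk liver, fewer cells of a type and less RNA per cell cannot be told apart.

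*Chka* had the largest difference among the members, with a mean in *Usp21* KO livers 5.20 times that in WT livers. Lower levels in KO were measured for *Etnk2*, with a WT mean 1.53 times the KO mean, and for *Pemt*, with a WT mean 1.28 times the KO mean, while the KO mean of *Etnk1* was 1.40 times the WT mean. In these 4 genes the KO libraries lay entirely on 1 side of the WT libraries, and in the other 6 the genotypes overlapped. After adjustment over all tested genes, 0 of the 10 members had an adjusted p under 0.05 in limma (0.0835% of all tested genes did), and 2 of 10 had an unadjusted p under 0.05 (10.5% of all tested genes). Of these, *Chka* was higher in KO (8.45% of all tested genes were called in this direction) and *Etnk2* was lower (2.04%). After upper quartile or TMM scaling *Pemt* was also called lower, which made 3 of 10, 1 higher and 2 lower. Of all tested genes, 5.14% were called higher and 4.04% lower after upper quartile scaling, and 4.62% and 4.53% after TMM scaling. The groups did not overlap for 4 of 10 members, 2 higher and 2 lower in KO, beside 45.3% of all tested genes, 34.4% higher and 10.9% lower. The share of members without overlap was thus close to the background. *Chka* was the 1 member with a difference of at least 2-fold, which 3.68% of all tested genes reached. Over the members the median difference was 0.09, against 0.15 over all tested genes. Of the members, 6 were higher and 4 lower in KO, where 66.7% of all tested genes were higher. After upper quartile scaling 5 members were higher and 5 lower (5172 and 4409 of all tested genes). After TMM scaling of the TPM 3 were higher and 7 lower (4885 and 4696 of all tested genes).

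**Figure D1:**
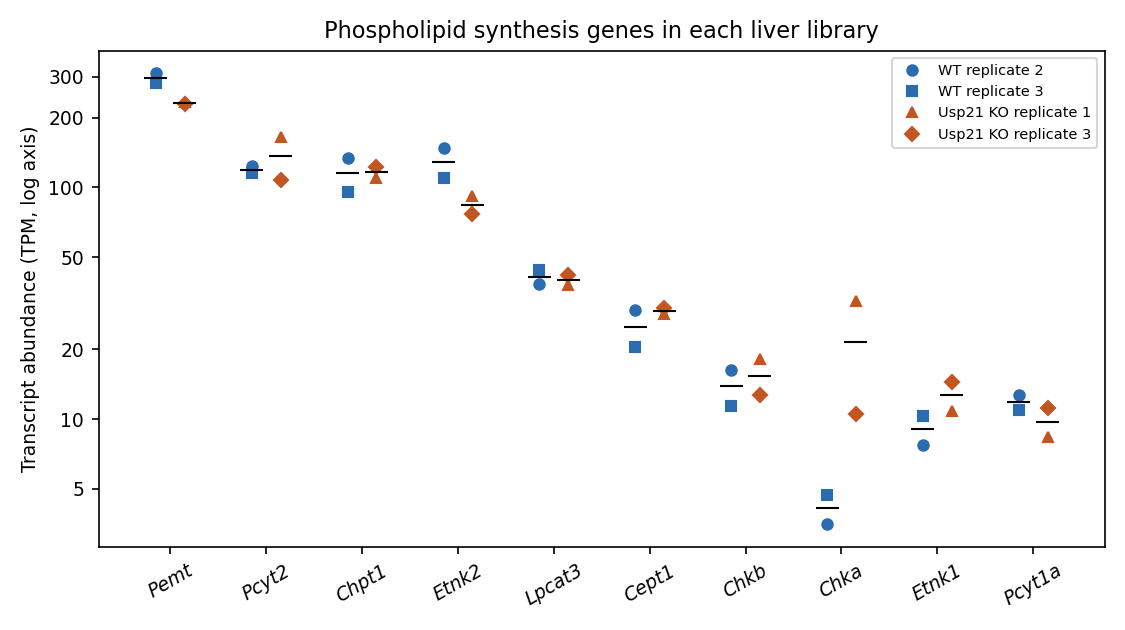
Transcript abundance (TPM, log axis) of the 10 genes in each liver library, ordered by the mean of the 4 libraries, with blue points for WT, orange points for *Usp21* KO and a bar at each genotype's mean. *Pemt* is at the top with 229 to 311 TPM, and *Chka* is the gene whose genotypes lie farthest apart, at 3.52 and 4.71 TPM (WT) and at 32.4 and 10.5 TPM (KO).

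The members spanned a wide range of levels in liver. *Pemt* was the most abundant, with every library above every value of the next gene. *Pcyt2* (108 to 165 TPM), *Chpt1* (95.6 to 134 TPM) and *Etnk2* (76.4 to 149 TPM) followed, and their ranges overlapped, so their order was not resolved. *Lpcat3* lay below them at 37.8 to 43.9 TPM and *Cept1* below that at 20.4 to 30.3 TPM, and neither overlapped its neighbours in this order. *Chkb* (11.4 to 18.1 TPM), *Chka* (3.52 to 32.4 TPM), *Etnk1* (7.73 to 14.4 TPM) and *Pcyt1a* (8.36 to 12.6 TPM) had the lowest means and overlapped each other. In total the 10 genes made up between 0.0658% and 0.0826% of the TPM of a library, and *Pemt* alone made up 31.8% to 40.0% of their sum. Its share was 37.7% and 40.0% in WT and 31.8% and 34.9% in KO, while that of *Chka* was 0.428% and 0.671% in WT and 4.39% and 1.60% in KO.

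Choline kinase catalyses the entry step of the CDP-choline route, and the enzyme is a dimer of alpha and beta chains encoded by *Chka* and *Chkb*. *Chka* (ENSMUSG00000024843) lies on the forward strand of chromosome 19, from 3851773 to 3894369 in GENCODE M21 (build GRCm38), where it has 14 annotated transcripts. WT replicates 2 and 3 stood at 3.52 and 4.71 TPM, and KO replicates 1 and 3 at 32.4 and 10.5 TPM. The KO values lay entirely above the WT values, and the KO libraries also differed from each other more than the WT libraries did (21.4 ± 15.5 TPM in KO and 4.12 ± 0.84 TPM in WT, SD, n = 2 each). The difference was 1.94 (SE 0.51, 95% interval 0.67 to 3.21), with an adjusted p in limma of 0.464 and an unadjusted p of 0.0101. It was the 32nd highest difference of the 9581 tested genes, and 1.79 above the median of all of them. KO replicate 1 set much of its size, because the difference was 1.17 without that library and 2.71 without KO replicate 3, and with variances estimated for this gene alone the unadjusted p was 0.132. KO replicate 1 was also the library with the lowest Kupffer cell sum (50.3 TPM) and the highest stellate (77.5 TPM) and cholangiocyte (37.9 TPM) sums, and their part in the result was not tested.

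*Chkb* (ENSMUSG00000022617, chromosome 15, 89426360 to 89429908, reverse strand) was at 16.2 and 11.4 TPM (WT) and at 18.1 and 12.7 TPM (KO). The genotypes overlapped, with a difference of 0.14 (SE 0.27, 95% interval -0.53 to 0.82, adjusted p = 0.855 in limma). The interval leaves room for a difference in either direction of more than 0.5 on the log2 scale. Of the 31-base stretches of its transcripts, 54.3% also occur in other annotated genes, most of them in *Gm44502*, which overlaps it on the same strand and was listed at 0.0502 to 0.216 TPM, so the division of reads between these genes is uncertain. Within a library, *Chkb* had 4.61 and 2.42 times the TPM of *Chka* in WT replicates 2 and 3, and 0.558 and 1.21 times in KO replicates 1 and 3. The log2 ratio of *Chka* to *Chkb* was therefore higher in KO by 1.80 (-1.53 ± 0.57 in WT and 0.28 ± 0.75 in KO, SD), without overlap, and the exact two-sided permutation p was 0.333, the smallest this design allows.

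Ethanolamine kinase is the matching entry step of the CDP-ethanolamine route. *Etnk1* (ENSMUSG00000030275, chromosome 6, 143167221 to 143232307, forward strand) was found at 7.73 and 10.3 TPM in WT livers, compared with 10.9 and 14.4 TPM in KO, where KO replicate 1 lay just above WT replicate 3. The difference was 0.45 (SE 0.25, 95% interval -0.17 to 1.07, adjusted p = 0.536 in limma), and 0.30 relative to the median of all tested genes. *Etnk2* (ENSMUSG00000070644, chromosome 1, 133363572 to 133380336, forward strand), whose product phosphorylates ethanolamine in liver, was the more abundant of the pair in every library. Its levels were 148.6 and 109 TPM (WT) and 92.1 and 76.4 TPM (KO), with no KO library reaching a WT library.

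The difference for *Etnk2* was -0.60 (SE 0.22, 95% interval -1.14 to -0.06), with an adjusted p in limma of 0.464 and an unadjusted p of 0.0355. In the linear fit with variances estimated for this gene alone, the unadjusted p was 0.145. Relative to the median of all tested genes the difference was -0.75, and -0.77 with either other scaling. Without WT replicate 2, the highest library, the difference was -0.38, and without WT replicate 3 it was -0.82. *Etnk2* is on the same chromosome as the targeted gene, 37.9 Mb away. No other annotated gene overlaps it, and 0% of its 31-base stretches occur in another gene. *Etnk2* had 19.2 and 10.6 times the TPM of *Etnk1* in WT replicates 2 and 3, and 8.47 and 5.29 times in KO replicates 1 and 3. The log2 ratio of *Etnk1* to *Etnk2* was higher in KO by 1.04 (-3.69 ± 0.58 in WT and -2.65 ± 0.46 in KO, SD), with no overlap and an exact two-sided permutation p of 0.333.

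**Figure D2:**
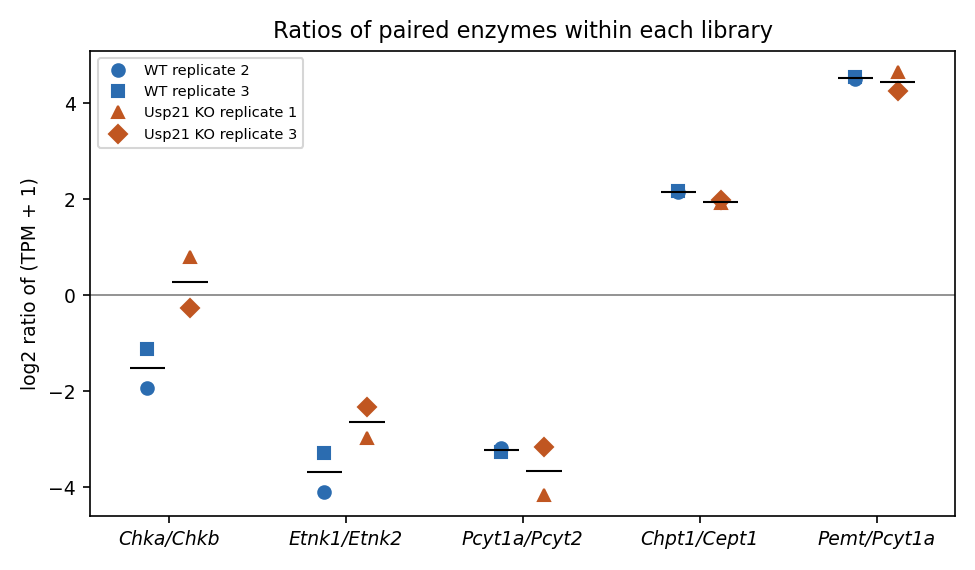
Log2 ratio of (TPM + 1) of paired enzymes within each library, with blue points for WT, orange points for *Usp21* KO and a bar at each genotype's mean. The *Chka*/*Chkb* ratio is 1.80 higher and the *Etnk1*/*Etnk2* ratio 1.04 higher in KO, and the *Pcyt1a*/*Pcyt2* and *Pemt*/*Pcyt1a* ratios overlap.

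Cytidylyl transferases make the activated CDP-bases, and this is the step that limits the rate of each route. *Pcyt1a* (ENSMUSG00000005615, chromosome 16, 32430921 to 32475070, forward strand), the enzyme for CDP-choline, was at 12.6 and 10.996 TPM (WT) and at 8.36 and 11.1 TPM (KO). The WT values enclosed that of KO replicate 3, and the difference was -0.26 (SE 0.23, 95% interval -0.83 to 0.31, adjusted p = 0.672 in limma). *Pcyt2* (ENSMUSG00000025137, chromosome 11, 120610087 to 120617936, reverse strand), its counterpart for CDP-ethanolamine, was at 123 and 115 TPM in WT livers, compared with 165 and 108 TPM in KO. KO replicate 1 was the highest and KO replicate 3 the lowest of the 4 libraries, and the difference was 0.16 (SE 0.24, 95% interval -0.44 to 0.76, adjusted p = 0.812 in limma). It turned to -0.15 without KO replicate 1 and was -0.0034 after TMM scaling. *Pcyt2* had between 9.65 and 19.8 times the TPM of *Pcyt1a*, and the log2 ratio of *Pcyt1a* to *Pcyt2* overlapped between genotypes (KO minus WT -0.43, exact two-sided permutation p = 1).

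The phosphotransferases finish the routes by joining the CDP-base to diacylglycerol. CHPT1 uses CDP-choline, and CEPT1 uses both CDP-choline and CDP-ethanolamine. *Chpt1* (ENSMUSG00000060002, chromosome 10, 88452745 to 88504073, reverse strand) was at 134 and 95.6 TPM (WT) and at 110 and 123 TPM (KO), so both KO libraries lay between the WT libraries. Its difference was 0.04 (SE 0.22, 95% interval -0.50 to 0.58, adjusted p = 0.958 in limma), and it was -0.095 after upper quartile scaling. *Cept1* (ENSMUSG00000040774, chromosome 3, 106502260 to 106547802, reverse strand) was at 29.5 and 20.4 TPM in WT livers, compared with 28.4 and 30.3 TPM in KO. The low value of WT replicate 3 set its difference of 0.24 (SE 0.23, 95% interval -0.32 to 0.81, adjusted p = 0.694 in limma), which was -0.010 without that library. Of the 31-base stretches of *Cept1*, 23.0% also occur in *Dennd2d*, which overlaps it on the opposite strand and was at 1.35 to 2.22 TPM. *Chpt1* had 4.54 and 4.67 times the TPM of *Cept1* in WT replicates 2 and 3, and 3.87 and 4.06 times in KO replicates 1 and 3. Of the 5 ratios computed this had the smallest SD within each genotype, 0.02 in WT and 0.05 in KO on the log2 scale, and it was lower in KO by 0.21 without overlap (exact two-sided permutation p = 0.333).

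PEMT methylates phosphatidylethanolamine with S-adenosylmethionine as the methyl donor, and it is most active in liver. *Pemt* (ENSMUSG00000000301, chromosome 11, 59970614 to 60046489, reverse strand) was at 311 and 281 TPM (WT) and at 235 and 229 TPM (KO). No KO value reached the WT values, and the libraries of each genotype were close together (295.9 ± 20.9 TPM in WT and 231.9 ± 3.76 TPM in KO, SD, n = 2 each). The difference was -0.35 (SE 0.16, 95% interval -0.75 to 0.05), with an adjusted p in limma of 0.496 and an unadjusted p of 0.0777. The unadjusted p was 0.0418 with variances estimated for this gene alone. In limma it was 0.0216 after upper quartile scaling and 0.0183 after TMM scaling, but 0.0655 to 0.0804 with the other pseudocounts and filters. The difference stayed between -0.42 and -0.28 when any 1 library was dropped. Relative to the median of all tested genes it was -0.50. Of the 5 hepatocyte markers, *Alb* (-0.35) and *Cyp2e1* (-0.34) also had both KO values below the WT values. The other 3 overlapped, with *Apoa1* at -0.24, *Ttr* at -0.04 and *Cps1* at 0.24. The part of hepatocyte RNA content in the *Pemt* and *Etnk2* values was not tested. *Pemt* had between 20.6 and 28.1 times the TPM of *Pcyt1a*, and this ratio overlapped between genotypes (KO minus WT -0.09, exact two-sided permutation p = 1).

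*Lpcat3* (ENSMUSG00000004270, chromosome 6, 124663027 to 124704418, forward strand) differed little between genotypes. It was at 38.1 and 43.9 TPM in WT livers, compared with 37.8 and 41.7 TPM in KO. The groups overlapped, and the difference of -0.04 (SE 0.18, 95% interval -0.48 to 0.40, adjusted p = 0.940 in limma) turned positive without WT replicate 3 or KO replicate 1. Its exons share 334 bases with *Emg1* on the opposite strand, which was expressed at a like level (30.7 to 41.3 TPM), and 9.10% of its 31-base stretches also occur there. On the opposite strand, exons of *Chka* share 74 and 165 bases with a pair of antisense genes, *Etnk1* shares 201 bases with *1700126G02Rik*, *Pcyt1a* shares 567 bases with *Slc51a*, which was listed at 0, and *Chpt1* shares 660 bases with *Sycp3*. The strand setting of the quantification is not given in the sources used here, so reads from these overlaps are uncertain.

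**Figure D3:**
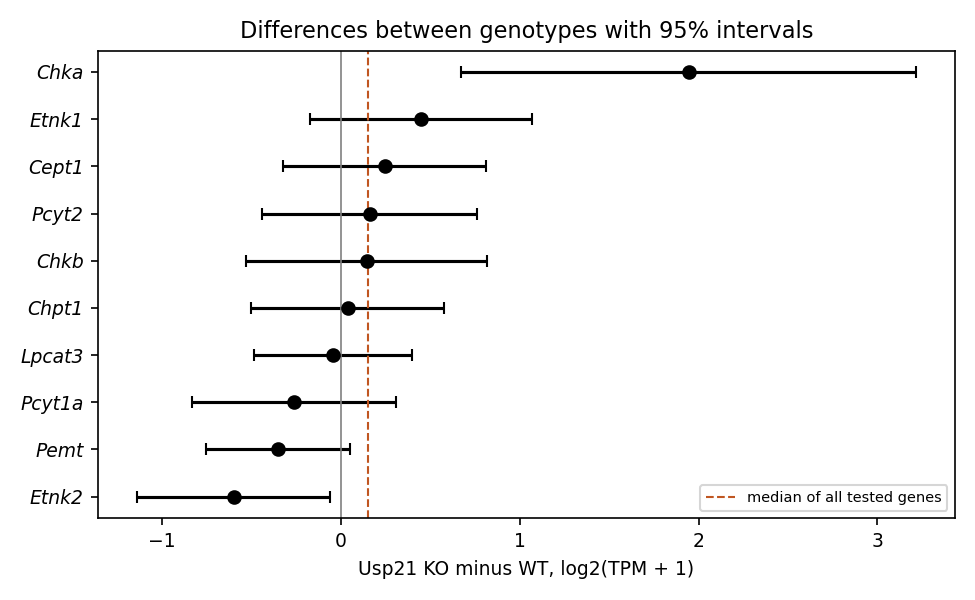
*Usp21* KO minus WT on the log2(TPM + 1) scale for each gene, with points at limma's estimates and bars for their 95% intervals. The dashed line is the median of all tested genes (0.15). The intervals of *Chka* (0.67 to 3.21) and *Etnk2* (-1.14 to -0.06) do not reach 0, without correction for the number of genes tested.

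The start regions are shown for the 4 members whose genotypes did not overlap, a share close to that of all tested genes. The gap was small for *Etnk1*, at 10.3 TPM in WT replicate 3 and 10.9 TPM in KO replicate 1. The RefSeq table of build GRCm38.p6 held 14 start windows for 9 of the 10 members (all but *Pcyt2*), each from 250 bases before the start site to 50 after it, and windows of *Cept1* and of *Pcyt1a* overlap among themselves. The 250 bases before the start are printed 5′ to 3′ on the gene's strand, with capitals for searched motifs, on either strand, that lie wholly within the printed bases. These sequences held matches only to the GC box, spelled GGGCGG, and to the CCAAT box, and the downstream *Pemt* region held none. The RefSeq table holds 2 starts for *Pemt*. Both lie downstream of its 5′ end in GENCODE M21 (60046489), and the region at that end was not searched.
*Chka*, chr19:3851523-3851772, forward strand: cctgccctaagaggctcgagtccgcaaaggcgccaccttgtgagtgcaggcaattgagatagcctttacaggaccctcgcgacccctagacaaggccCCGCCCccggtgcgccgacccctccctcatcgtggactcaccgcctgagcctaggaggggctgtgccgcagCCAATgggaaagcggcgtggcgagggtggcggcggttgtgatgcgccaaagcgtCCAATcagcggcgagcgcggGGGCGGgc
*Etnk1*, chr6:143166980-143167229, forward strand: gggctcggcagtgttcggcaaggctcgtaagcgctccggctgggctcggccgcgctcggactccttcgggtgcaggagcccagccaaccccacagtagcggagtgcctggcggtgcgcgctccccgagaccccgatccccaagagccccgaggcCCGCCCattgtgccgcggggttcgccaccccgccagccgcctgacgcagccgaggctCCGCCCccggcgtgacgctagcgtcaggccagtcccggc
*Etnk2*, chr1:133363322-133363571, forward strand: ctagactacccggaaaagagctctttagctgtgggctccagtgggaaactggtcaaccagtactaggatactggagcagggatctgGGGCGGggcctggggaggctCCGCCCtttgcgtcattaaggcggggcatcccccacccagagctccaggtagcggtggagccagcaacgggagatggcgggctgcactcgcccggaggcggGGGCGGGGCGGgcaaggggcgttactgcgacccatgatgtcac
*Pemt*, upstream start, chr11:60040189-60040438, reverse strand: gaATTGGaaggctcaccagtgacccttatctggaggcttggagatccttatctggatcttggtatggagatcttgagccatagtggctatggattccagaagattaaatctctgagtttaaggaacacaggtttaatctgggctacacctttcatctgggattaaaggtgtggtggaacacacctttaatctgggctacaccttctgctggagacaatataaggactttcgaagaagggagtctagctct
*Pemt*, downstream start, chr11:60037006-60037255, reverse strand: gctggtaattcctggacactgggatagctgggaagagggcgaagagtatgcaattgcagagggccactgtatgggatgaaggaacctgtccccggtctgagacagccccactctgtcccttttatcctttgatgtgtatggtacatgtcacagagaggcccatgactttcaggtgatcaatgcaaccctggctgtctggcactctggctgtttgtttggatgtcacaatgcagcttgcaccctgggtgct

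The *Chka*, *Etnk1* and *Etnk2* regions were rich in G and C (68.0%, 74.8% and 65.2%) and in CG dinucleotides (24, 31 and 15). The *Pemt* regions had 44.8% and 52.8% G and C with 1 and 2 CG dinucleotides, compared with medians of 52.4% and 6 over all 32851 windows of the table. GGGCGG was found in 10 of the 14 member windows and in 35.7% of all windows, and it was absent from both *Pemt* windows. CCAAT was found in 6 of 14 member windows and 37.4% of all windows, with 2 copies before *Chka*. Copies of GGGCGG can overlap, as they do at the *Chka* start. The E-box CACGTG, the D-box TTANGTAA and the CRE TGACGTCA were each found in 0 of 14 member windows, and in 7.15%, 2.32% and 1.79% of all windows. TATAAA was found in 1 member window (*Chkb*) and 13.6% of all windows, and TCACNCCAC in 2 overlapping windows of *Pcyt1a* and 1.24% of all. These are matches of letters in short windows and not sites of binding. *Chka* and *Etnk2* both held several GC boxes, and the part of such matches in their values was not tested.

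Genes of neighbouring steps were described by lists of 51 genes, chosen with earlier results of these data known. Of these genes, 50 were in the table and 40 were tested. After adjustment, 0 of the 40 had an adjusted p under 0.05 in limma. An unadjusted p under 0.05 was found for 7, with 6 higher (15%, beside 8.45% of all tested genes) and 1 lower in KO (2.5%, beside 2.04%). This split did not hold under other scalings of the TPM: it was 2 higher and 4 lower after upper quartile scaling (all tested genes 5.14% and 4.04%) and 0 higher and 4 lower after TMM scaling (4.62% and 4.53%). The genotypes did not overlap for 16 (40.0%), beside 45.3% of all tested genes. Of the 40, the median difference was 0.07, with 23 higher and 17 lower in KO (66.7% of all tested genes were higher). After TMM scaling 17 were higher and 23 lower (4885 and 4696 of all tested genes).

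In the CDP-ethanolamine route, *Selenoi*, which encodes an ethanolaminephosphotransferase, was at 5.27 and 3.803 TPM (WT) and at 7.96 and 8.14 TPM (KO). The KO values were both the higher ones, and the difference was 0.72 (SE 0.24, adjusted p = 0.464 in limma, 0.53 to 0.91 with each library left out). *Pcyt1b*, the other gene for CDP-choline synthesis, was at 0 in 3 libraries and at 0.0413 TPM in KO replicate 1. Liver can also make phosphatidylethanolamine from phosphatidylserine, and of the 3 tested genes of that route (*Ptdss1*, *Ptdss2* and *Pisd*) the median was 0.09, with 2 higher and 1 lower in KO. *Ptdss1*, the most abundant, was at 14.0 and 13.9 TPM in WT livers, compared with 14.4 and 15.5 TPM in KO, a difference of 0.09 that was -0.039 after upper quartile scaling.

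Of 8 acyltransferase genes that remodel phospholipids, 3 passed the filter, 1 higher and 2 lower in KO (median -0.03). *Lpgat1*, with the highest mean of them over the 4 libraries, was at 14.0 and 18.5 TPM (WT) and at 17.5 and 20.2 TPM (KO), with overlap. *Lpcat1*, *Lpcat2* and *Lpcat4* were each below 1 TPM in every library, which leaves *Lpcat3* as the abundant *Lpcat* transcript of these livers. In the branch from CDP-diacylglycerol to phosphatidylinositol and cardiolipin, 2 of 4 tested genes were higher and 2 lower (median 0.10), and *Cdipt*, the phosphatidylinositol synthase, had a difference of -0.04 with overlap.

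For choline uptake and oxidation, the median over 11 tested genes was 0.02, with 6 higher and 5 lower in KO, and after upper quartile scaling 4 were higher and 7 lower. *Chdh*, which encodes the choline dehydrogenase that commits choline to betaine, was at 15.6 and 15.1 TPM in WT livers, compared with 22.3 and 22.6 TPM in KO (difference 0.52, SE 0.18, adjusted p = 0.464 in limma). *Bhmt2*, a methyltransferase that makes methionine, was at 88.7 and 78.2 TPM (WT) and at 62.2 and 50.2 TPM (KO; difference -0.57, SE 0.19, adjusted p = 0.464 in limma). Both genes had the KO libraries entirely on 1 side of the WT libraries. *Bhmt*, the betaine-dependent enzyme and the most abundant of the list, was at 1530 and 719 TPM in WT livers, compared with 972 and 518 TPM in KO, so its genotypes overlapped.

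Among genes of phospholipid breakdown, 7 of 9 tested genes were higher and 2 lower in KO (median 0.20), beside 66.7% of all tested genes higher. After TMM scaling 5 of the 9 were higher and 4 lower. The lysophospholipase gene *Pnpla7* was at 65.4 and 41.6 TPM (WT) and at 90.0 and 78.4 TPM (KO; difference 0.68, SE 0.25, adjusted p = 0.468 in limma). The phospholipase gene *Pnpla8* was at 36.7 and 38.2 TPM in WT livers, compared with 56.5 and 53.4 TPM in KO (difference 0.54, SE 0.16, adjusted p = 0.464 in limma). Neither gene overlapped between genotypes, whereas *Lypla1*, which had the highest mean of the list over the 4 libraries, did (difference 0.14). Leaving out WT replicate 3 took the *Pnpla7* difference to 0.36, and leaving out WT replicate 2 took it to 0.996.

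For transfer and export of phospholipid, 4 of 9 tested genes were higher and 5 lower (median -0.01). *Abcb4*, the transporter that moves phosphatidylcholine into bile, was at 43.0 and 29.3 TPM (WT) and at 51.6 and 62.0 TPM (KO; difference 0.66, SE 0.24, adjusted p = 0.464 in limma), and the difference was 0.39 without WT replicate 3. *Apob*, the structural protein of very low density lipoprotein, had a difference of 0.52 (SE 0.18, adjusted p = 0.464 in limma), without overlap. *Stard10*, a phospholipid transfer protein with the highest mean of the list over the 4 libraries, was at 916 and 792 TPM in WT livers, compared with 689 and 675 TPM in KO (difference -0.32, SE 0.18, adjusted p = 0.536 in limma).

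**Figure D4:**
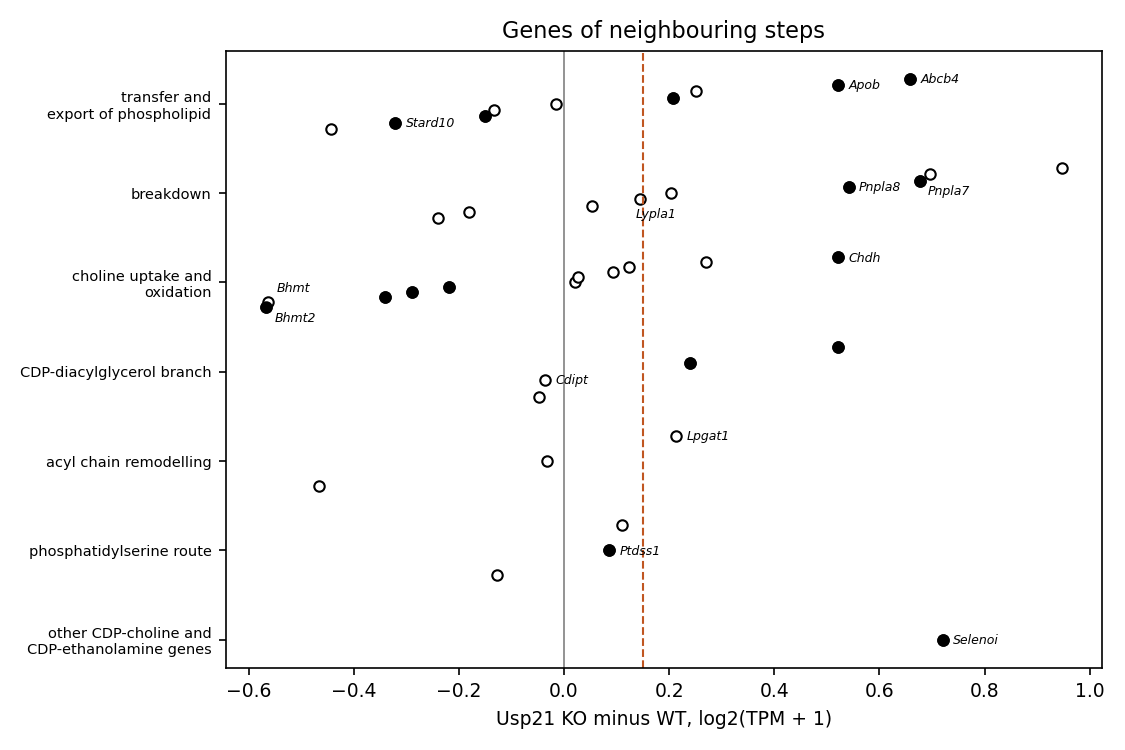
*Usp21* KO minus WT on the log2(TPM + 1) scale for the 40 tested genes of neighbouring steps, 1 point per gene, filled where the genotypes did not overlap. The dashed line is the median of all tested genes (0.15), and gene names mark those described in the text. *Selenoi* (0.72), *Pnpla7* (0.68) and *Abcb4* (0.66) lie to the right and *Bhmt2* (-0.57) to the left.

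**Figure D5:**
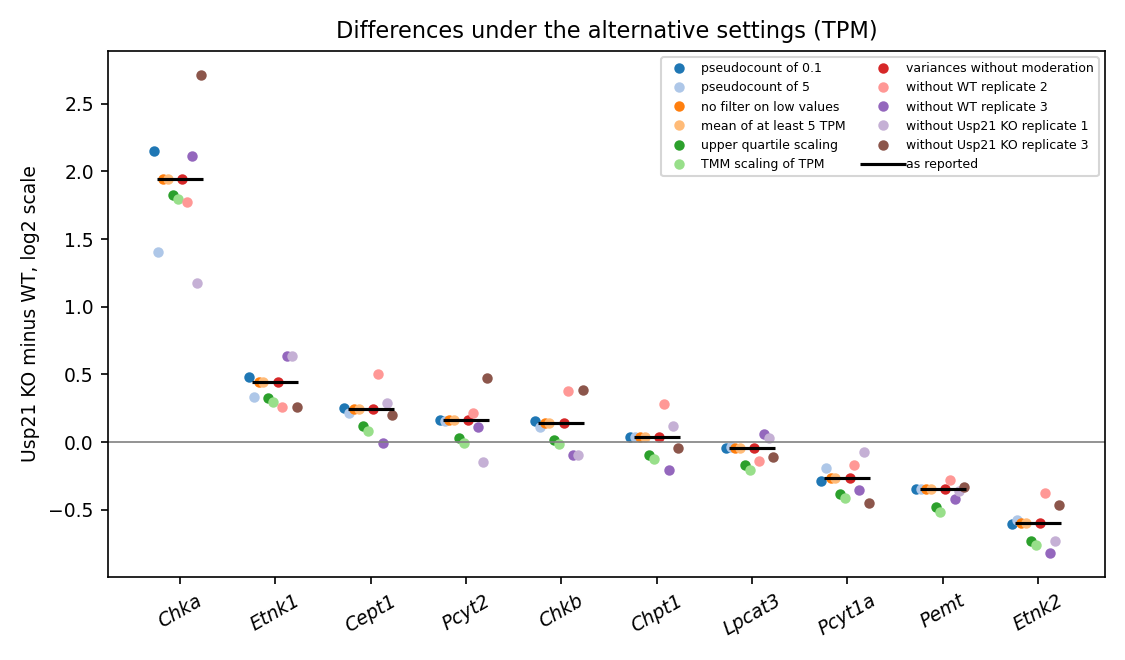
Difference of each gene between *Usp21* KO and WT under 11 alternative settings of the TPM analysis (coloured points), with a black bar at the reported value. *Chka* (1.17 to 2.71) and *Etnk1* stay above 0, and *Etnk2*, *Pemt* and *Pcyt1a* stay below 0. *Chkb*, *Pcyt2*, *Chpt1*, *Cept1* and *Lpcat3* fall on both sides of 0. For *Chka*, *Etnk1*, *Etnk2* and *Pemt*, whose genotypes do not overlap, only the upper quartile and TMM scalings could have turned the direction.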

How the data were processed

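RNA-seq of liver total RNA was analysed in 4 libraries, 2 per genotype, grouped by their labels. The authors estimated abundances with salmon against mm10 and deposited TPM per gene for 35739 genes. They also deposited gene counts from HTSeq, scaled by TMM, as a CPM signal for 55335 genes. Tool versions, annotation and strand setting are not given in the sources used here. Because the CPM table lists 428 of its 682 genes that reach 100 TPM in all libraries at 0 throughout, the TPM were tested. Low CPM values were whole multiples of 1 read (100% within 0.02 reads), which gave 102898 to 148164 recovered reads per library. The depth behind the TPM is unknown. The authors' log-scale tables were not used.

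Genes whose mean reached 1 TPM were fitted on log2(TPM + 1) with limma 3.58.1 (trended eBayes, prior degrees of freedom 3.62) in R 4.3.3, two-sided, with Benjamini-Hochberg adjustment. P-values measure the spread between these libraries. Recovered reads (mean of at least 1) were tested with edgeR 4.0.16 and DESeq2 1.42.0. All 10 members were named, and of each neighbouring list the gene with the highest 4-library mean and those with an unadjusted p under 0.05 and no overlap. Coordinates came from GENCODE M21, which held 35126 of the table's identifiers. Scripts were tested on simulated data. The members and lists were chosen with earlier results of these data known.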

Additional observations from a re-analysis of the deposited data

How the results depend on the processing

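The number of members with an adjusted p under 0.05 was 0 under all 14 alternatives, in each of which limma, edgeR or DESeq2 was run. The number with an unadjusted p under 0.05, 2 as reported, was 3 after upper quartile and after TMM scaling (879 and 877 of all 9581 tested genes). It was 1 without moderation of variances (*Pemt*, beside 806 of all 9581 tested genes). On the CPM values, in edgeR and in DESeq2 it was 0 of the 2 members tested there (140, 155 and 22 of all 2414 genes). For the fits with a library left out, which leave 1 library in a genotype, this number is not given. The number without overlap, 4 as reported, was 1 of 2 on the CPM table. It was 6 to 8 with each library left out, where 1 library faces 2 and overlap is less likely for any gene. The numbers with a library left out are therefore not comparable with the 4 as reported. No share over all tested genes was computed for any of these settings. The median difference of the members, 0.09 as reported, was -0.038 after upper quartile scaling, -0.070 after TMM scaling, -0.17 on the CPM values, -0.23 in edgeR, -0.24 in DESeq2, and -0.051 to 0.23 with each library left out. *Chka*, *Etnk1*, *Etnk2*, *Pemt* and *Pcyt1a* kept their direction in every TPM alternative. The filters and the unmoderated variances reuse the same estimate, so they cannot turn a direction. Where the genotypes do not overlap, no pseudocount and no left-out library can turn it either. For *Chka*, *Etnk1*, *Etnk2* and *Pemt*, only the upper quartile and TMM scalings could have done so. Leaving out each library moved *Chka* from 1.17 to 2.71, *Etnk2* from -0.82 to -0.38, *Etnk1* from 0.26 to 0.63 and *Pcyt1a* from -0.45 to -0.08. Directions turned for *Chkb* (-0.012 with TMM scaling, -0.094 to 0.38 with each library left out), *Pcyt2* (-0.0034 with TMM scaling, -0.15 to 0.47), *Chpt1* (-0.095 with upper quartile and -0.13 with TMM scaling, -0.20 to 0.28), *Cept1* (-0.55 on the CPM values, -0.68 in edgeR, -0.72 in DESeq2, -0.010 to 0.50) and *Lpcat3* (0.21 on the CPM values, 0.23 in edgeR, 0.24 in DESeq2, -0.14 to 0.058). Of the neighbouring genes, they turned for *Ptdss1* (-0.039 with upper quartile and -0.069 with TMM scaling, -0.064 on the CPM values, -0.11 in edgeR, -0.17 in DESeq2), *Lypla1* (-0.021 with TMM scaling) and *Cdipt* (-0.37 to 0.30 with each library left out). With each library left out, the difference between genotypes in the log2 ratio was 1.27 to 2.33 for *Chka*/*Chkb*, 0.64 to 1.45 for *Etnk1*/*Etnk2*, -0.92 to 0.07 for *Pcyt1a*/*Pcyt2*, -0.24 to -0.17 for *Chpt1*/*Cept1* and -0.29 to 0.12 for *Pemt*/*Pcyt1a*. The cause of these turns was not tested. No paired analysis was possible because no pairing of the libraries is given. With 2 libraries per genotype, the 95% intervals of 8 of the 10 members include 0.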

Other observations

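In the CPM table, 7 of the 10 members were listed at 0 in all 4 libraries, including *Pemt*, the most abundant of them by TPM. *Lpcat3* had 7 and 5 recovered reads in WT replicates 2 and 3 and 7 and 8 in KO replicates 1 and 3, *Cept1* had 5 and 7 in WT and 4 and 4 in KO, and *Chpt1* had 1 read in WT replicate 3 alone. The upper limit for a 0 is 3 reads, or 20.04 to 27.7 CPM, for counting error only, so 0 or 1 read gives no measure of a member. Exons of *Lpcat3* share 334 bases with *Emg1* (30.7 to 41.3 TPM) on the opposite strand. Those of *Cept1* share 771 with *Dennd2d* (1.35 to 2.22 TPM) and 5 with *Dram2* (26.6 to 43.4 TPM) there. Whether reads counted for *Lpcat3* and *Cept1* came from these neighbours was not tested, so they are no sure measure of either gene.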
